A study of Mus musculus with 32 samples.

Results

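The effect of a high-fat diet on liver gene expression was examined in female mice, averaged over the diets their mothers had received. The comparison used the 16 bead arrays of females out of 32 arrays in the series. Of these, 8 came from females on the high-fat diet and 8 from females on the control diet, and the maternal diet was kept as a block. All mice were C57bl/6J OlaHsd, and their livers were taken at 20 weeks of age. The high-fat diet, with its fat content labelled 36% SF, was given from 6 weeks of age for 14 weeks, and control females received a control diet over the same time. Within each offspring diet, 4 females had mothers fed the low-protein diet (9%, 90 g casein per kg) in gestation and 4 had mothers fed the 18% control diet. The 4 arrays of each combination are labelled biological replicates. The series was made to learn whether a low-protein diet in pregnancy sets the metabolism of daughters and sons differently.

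The liver takes up dietary fatty acids, burns them in mitochondria and peroxisomes, packs them into lipoproteins or stores them as triglyceride in lipid droplets. PPAR-alpha, a nuclear receptor that binds fatty acids, switches on oxidation genes, while the SREBP factors drive genes of cholesterol and fatty acid synthesis when sterols are scarce or insulin is high. The same hepatocytes make most plasma proteins, including clotting factors, complement and protease inhibitors, which are folded in the endoplasmic reticulum before secretion.

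The arrays of high-fat females were dimmer before normalisation. Mean raw intensity was 364 ± 48.9 units (SD, n = 8, range 300.0 to 418) on high-fat arrays and 423 ± 32.1 units (SD, n = 8, range 366 to 461) on control arrays, with an exact two-sided permutation p = 0.0176 over 4900 exchanges within maternal diets. The share of probes detected above background was 45.4% ± 0.75 on high-fat arrays and 46.2% ± 0.81 on control arrays (SD, n = 8 each, exact permutation p = 0.0576). The 4 dimmest arrays were all high-fat arrays: replicates 1, 2 and 3 after 9% and replicate 1 after 18%. The fit was repeated with the log2 mean raw intensity of the array as a covariate, called the brightness covariate. Hepatocyte markers Alb, Ttr and Apoa1 were detected on 8 of 8 arrays of each diet, and Ttr had a mean log2 intensity of 14.84 in high-fat and 14.87 in control females.

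**Figure D1:**
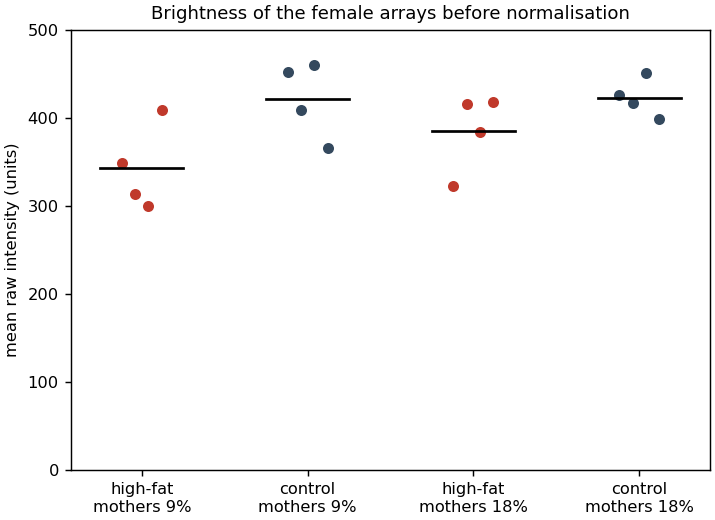
Mean raw intensity (units, y axis from 0) of each female array by diet and maternal diet; points are arrays and horizontal lines are means of 4. High-fat arrays lay between 300.0 and 418 units and control arrays between 366 and 461 units, so the ranges overlap, but the 4 lowest points are high-fat arrays.

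Among 9446 features tested, 8711 of them named genes and the rest probes without a gene symbol, 808 passed the adjusted threshold of 0.05 (8.55%). High-fat livers had higher levels for 425 (4.5%) and lower levels for 383 (4.05%). Counts of list members given below are to be read beside these shares. The changes were mostly small, with a median size of 0.39 on the log2 scale and a median SE of 0.094. Only 32 of the 808 changed over 2-fold, 26 of them higher and 6 lower. The 8 high-fat arrays lay wholly above the 8 control arrays for 42 features and wholly below them for 48, together 0.953% of the features. The test was limma with an intensity trend, two-sided, with Benjamini-Hochberg adjustment. Given the brightness covariate, 23 features passed (0.243%), 22 of them among the 808; over the 808 the median size was then 0.32 and the median SE 0.116. Without the 4 dimmest arrays 14 passed.

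**Figure D2:**
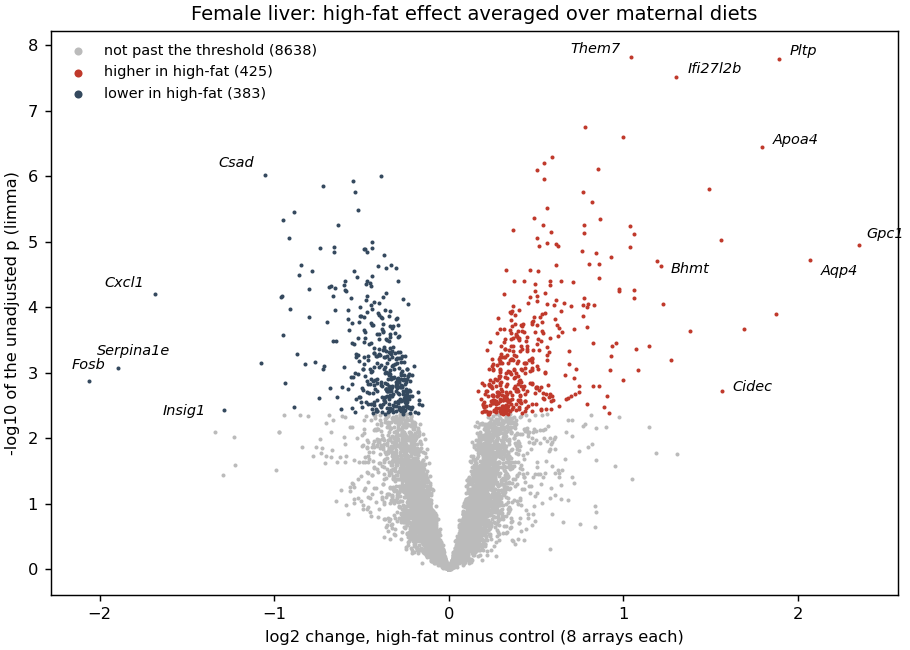
Log2 change, high-fat minus control (x axis), against −log10 of the unadjusted limma p (y axis) for 9446 features, 8 arrays per diet. Red points (425) were higher and blue-grey points (383) lower in high-fat females at an adjusted p under 0.05; Gpc1, Aqp4, Pltp and Apoa4 lie farthest to the right among labelled genes and Fosb, Serpina1e and Cxcl1 farthest to the left.

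The largest rise was that of Gpc1, a heparan sulphate proteoglycan of the cell surface. Its log2 intensity ran from 9.01 to 10.37 (median 9.63) in high-fat females and from 6.34 to 9.94 (median 6.74) in control females. Among control females 1, of a mother on 18%, lay within the high-fat range, and the others lay below it. Gpc1 rose by 2.35 ± 0.39 (log2 ± SE, n = 8 per diet, adjusted p = 0.00254), a 5.11-fold change. The water channel gene Aqp4, with detection on 8 high-fat and 3 control arrays, stood at 6.16 to 8.15 (median 7.56) in high-fat and 4.72 to 7.21 (median 4.94) in control females. It rose by 2.07 ± 0.36, and 6 of 8 high-fat arrays lay above every control array. The limma adjusted p for Aqp4 was 0.00328.

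Several of the other large rises were in genes with no well-known part in hepatocyte fat handling. Olig1, a transcription factor best known from oligodendrocytes, stood at 7.15 to 8.71 (median 8.10) in high-fat females, entirely above the 5.91 to 7.06 (median 6.43) of control females. It rose by 1.49 ± 0.21 (limma adjusted p = 0.000921). Ifi27l2b, of an interferon-inducible family, also separated the diets: 6.61 to 7.08 (median 6.92) in high-fat females and 4.75 to 5.96 (median 5.63) in control females. It rose by 1.30 ± 0.14 (limma adjusted p = 9.54e-05). The laminin subunit Lamb3, the melanin enzyme Dct, the secreted protein Wfdc2 and the calsyntenin Clstn3 rose by 1.27 ± 0.31, 1.23 ± 0.24, 1.15 ± 0.26 and 1.09 ± 0.27. In these 4 genes 5 or 6 of 8 high-fat arrays exceeded every control array. Clstn3 reached detection on 7 high-fat arrays and 5 control arrays, and its other probe changed by 0.25 (adjusted p = 0.0880, all probes tested singly). Slc39a5, a zinc transporter, rose by 1.20 ± 0.21 on a probe detected on 7 high-fat and 3 control arrays. Like that of Aqp4, this probe was kept for testing through its high-fat arrays, so its call is no separate support. The other Slc39a5 probes changed by 0.84, 0.37 and 0.11. One high-fat array, at 4.83, lay below all control arrays of Slc39a5, which spanned 4.84 to 5.27.

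**Figure D3:**
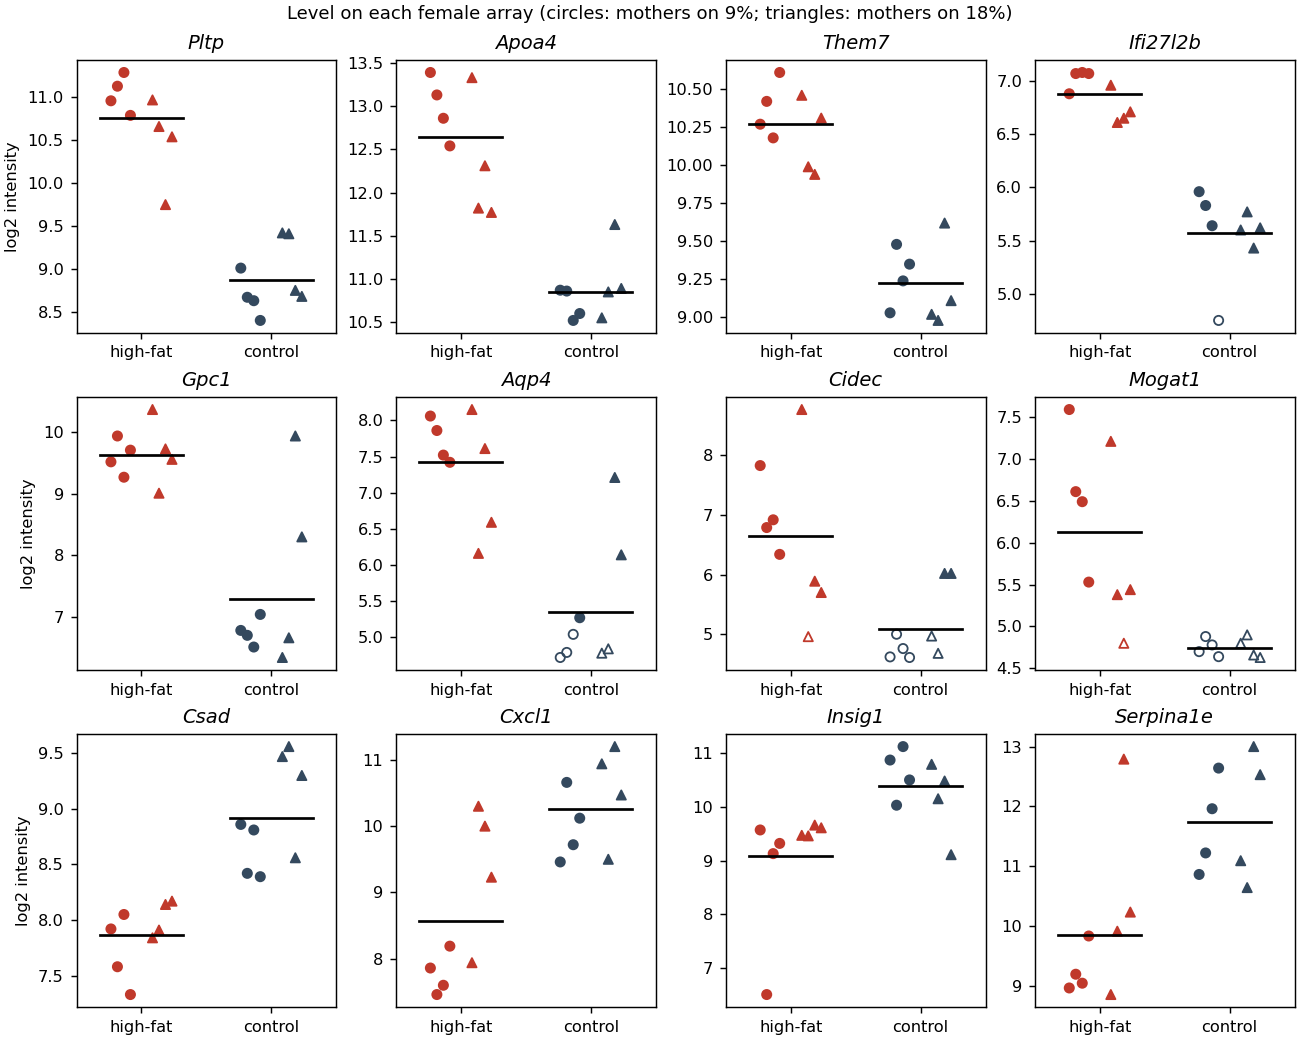
Normalised log2 intensity on each of the 16 female arrays for 12 genes, high-fat left and control right in each panel; circles are daughters of mothers on 9%, triangles of mothers on 18%, hollow symbols are arrays without detection, and lines are means of 8. Pltp, Apoa4, Them7, Ifi27l2b and Csad separate the diets without overlap, while single arrays lie apart in the high-fat groups of Insig1 (6.51) and Serpina1e (12.79).

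Pltp and Apoa4, genes of lipoprotein handling, separated the diets on every array. Pltp, which transfers phospholipids between lipoproteins, stood at 9.75 to 11.29 (median 10.88) in high-fat females and at 8.40 to 9.42 (median 8.72) in control females. The diets did not overlap, and Pltp rose by 1.89 ± 0.19 (3.71-fold, limma adjusted p = 7.64e-05); its other probe rose by 1.71. Apoa4, an apolipoprotein of triglyceride-rich particles, stood at 11.77 to 13.39 (median 12.70) in high-fat and 10.52 to 11.63 (median 10.85) in control females. It rose by 1.80 ± 0.23 (3.47-fold, limma adjusted p = 0.000567), again with no overlap. Apoc2, the cofactor of lipoprotein lipase, rose by 0.84 ± 0.14, and Sort1, a sorting receptor that affects lipoprotein export, fell by 0.80 ± 0.15 (limma adjusted p = 0.00269 and 0.00533).

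Across the 18 measured apolipoprotein and lipoprotein genes 3 rose, 1 fell and 14 did not pass, with a median change of 0.00, next to a median of 0.00 over all features. Pltp and Apoa4 still passed with the brightness covariate, and the list's median was then -0.03. Pltp was also the single member past the threshold among 13 measured targets of the liver X receptors, whose median was -0.03, or 0.03 with the covariate; Nr1h3, which encodes the alpha receptor, changed by -0.04 ± 0.06 (adjusted p = 0.720). The promoter of Pltp is shown because this gene and Them7 shared the smallest adjusted p. Sequences are from RefSeq (GRCm38.p6), windows of 300 bases that take in the start of the gene. A direct repeat of AGGTCA with 4 spacer bases, the usual liver X receptor element, was searched on both strands. The Pltp window held no exact match. Of all 32851 promoters 0.0152% held one, and of the 9157 promoters of genes tested 0 did. Its absence therefore does not set Pltp apart from the other genes tested. Capitals mark a CCAAT box read on the opposite strand, whose letters occur on either strand in 37.4% of all promoters of this length. The window is chr2:164857659-164857958 (minus strand).
Pltp: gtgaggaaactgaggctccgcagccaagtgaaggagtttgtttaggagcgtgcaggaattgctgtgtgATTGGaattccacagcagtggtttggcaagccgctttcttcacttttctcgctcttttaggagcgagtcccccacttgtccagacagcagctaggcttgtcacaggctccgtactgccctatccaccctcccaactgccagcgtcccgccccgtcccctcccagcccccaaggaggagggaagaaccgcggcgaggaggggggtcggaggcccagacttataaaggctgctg

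Lipid droplet and triglyceride genes were higher in high-fat livers at a few members. Cidec, which enlarges lipid droplets, reached detection on 7 high-fat arrays and 2 control arrays, at 4.96 to 8.77 (median 6.57) in high-fat and 4.61 to 6.02 (median 4.86) in control females. It rose by 1.56 ± 0.43 (limma adjusted p = 0.0323), with 5 of 8 high-fat arrays above all control arrays. With detection on only 2 control arrays, the Cidec probe met the filter through its high-fat arrays. Neither its p-value nor this separation is separate support for the rise. Fitm1, which helps droplets form, reached detection on 4 high-fat arrays and on 0 control arrays. Its level was at least 1.18-fold higher (limma adjusted p = 0.0135). The probe was kept for testing through its high-fat arrays alone, so this p-value is no separate support for the rise. Plin5, a droplet coat protein at contacts with mitochondria, rose by 0.57 ± 0.14, although its other probe changed by 0.20 (adjusted p = 0.362, probes tested singly). Rab18, a small GTPase found on droplets, fell by 0.28 ± 0.06. Plin2, the main droplet coat of hepatocytes, changed by 0.36 ± 0.21 (limma adjusted p = 0.286).

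In all, 3 of 18 measured droplet genes rose and 1 fell, 22.2% of the list beside 8.55% over all features. The rises include Cidec and Fitm1, whose probes were kept for testing through high-fat arrays, so this share is no separate support. Of the 18 changes 16 were positive and the median was 0.30. Mogat1, which makes diacylglycerol from monoacylglycerol, reached detection on 7 high-fat arrays and on 0 control arrays, at 4.80 to 7.59 (median 6.01) in high-fat and 4.63 to 4.90 (median 4.74) in control females. It was at least 1.98-fold higher (limma adjusted p = 0.0108). Like that of Fitm1, its probe was kept for testing through high-fat arrays alone, so this p-value is no separate support. Acsl5, which activates long-chain fatty acids, rose by 0.39 ± 0.10 (limma adjusted p = 0.0232). With Mogat1 this made 2 of 15 measured triglyceride synthesis genes that rose and 0 that fell, with a median of 0.16. That is 13.3% of the list, beside 8.55% over all features, but Mogat1 entered the test through its high-fat arrays alone. Acsl5 was the only other rise, so this share is not read as a result about the list. No gene of either list passed with the brightness covariate, and the medians were then 0.23 for droplet and 0.14 for triglyceride genes. Among droplet genes 2 to 5 rose when 1 array was left out, with 5 without replicate 2 of the high-fat group after 18%. Among triglyceride genes 1 or 2 rose, with 1 without replicate 2 of the high-fat group after 9%. The call of Cidec ended in 9 of 16 fits that left out 1 array, with adjusted p-values between 0.0114 and 0.0624.

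Among fatty acid synthesis genes the rises were in desaturases, an elongase and the citrate carrier. Fads1 and Fads2, the delta-5 and delta-6 desaturases of polyunsaturated fatty acids, rose by 0.59 ± 0.08 and 0.98 ± 0.19 (limma adjusted p = 0.000689 and 0.00549). Fads1 separated the diets, at 14.23 to 14.68 (median 14.42) in high-fat and 13.48 to 14.11 (median 13.80) in control females. Fads2 ran from 11.07 to 11.53 (median 11.27) in high-fat females, and from 9.69 to 11.51 (median 10.30) in control females. For Fads2 1 control array, at 11.51, lay among the high-fat arrays, and the next control array stood at 10.53. Elovl5, which elongates polyunsaturated fatty acids, and Slc25a1, the mitochondrial citrate carrier, each rose by 0.40, with SEs of 0.11 and 0.08. The other Slc25a1 probe changed by 0.19 (adjusted p = 0.214, probes tested singly).

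Fasn, the fatty acid synthase, ran from 6.93 to 8.26 (median 7.59) in high-fat and from 5.78 to 8.75 (median 7.02) in control females, a change of 0.45 ± 0.37 (limma adjusted p = 0.493). Scd1, the stearoyl-CoA desaturase, changed by 0.36 ± 0.15 (limma adjusted p = 0.144). Srebf1, which encodes the SREBP-1 factor, changed by -0.05 ± 0.29 (limma adjusted p = 0.939). The control females thus spanned a wider range than the high-fat females for Fasn. Of 20 measured genes of the list 4 rose and 0 fell, 15 of 20 changes were positive and the median was 0.32, or 0.25 with the brightness covariate. Fads1 remained past the threshold with that covariate. Leaving out 1 array gave 3 to 7 rises, with 7 without control replicate 1 after 18%.

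All 15 measured cholesterol synthesis genes had positive changes and 6 of them rose. The list's median was 0.55, against 0.57 with the brightness covariate. The 6 were Idi1 (0.83 ± 0.22), Dhcr7 (0.81 ± 0.14), Pmvk (0.70 ± 0.20), Lss (0.63 ± 0.18), Hsd17b7 (0.50 ± 0.14) and Tm7sf2 (0.48 ± 0.10), enzymes between mevalonate phosphorylation and the final sterol reductions. Dhcr7, the last reductase of the pathway, stood at 8.53 to 9.59 (median 9.13) in high-fat and 7.82 to 8.66 (median 8.20) in control females, and 7 of 8 high-fat arrays lay above all control arrays. Sqle, the squalene epoxidase, changed by 0.32 ± 0.25 (limma adjusted p = 0.465). None of the 15 passed with the brightness covariate, and leaving out 1 array gave between 2 and 9 rises, moving the count by over 1.5 times in 6 of 16 fits. The calls of Pmvk and Idi1 ended in 11 and 5 of these 16 fits.

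Insig1, which holds SREBP in the endoplasmic reticulum when sterols are plentiful, fell. It ran from 6.51 to 9.66 (median 9.46) in high-fat and from 9.11 to 11.12 (median 10.49) in control females. The high-fat arrays other than the one at 6.51 began at 9.13, and all but 1 control array exceeded every high-fat array. Insig1 fell by 1.29 ± 0.39 (limma adjusted p = 0.0461), by 0.91 without the lowest array, replicate 2 after 9% (adjusted p = 0.0264), and the 2 further probes gave -0.37 and -0.36 (adjusted p = 0.269 and 0.331, probes tested singly). The call ended in 12 of 16 fits that left out 1 array, with adjusted p-values up to 0.0865. It was the single member past the threshold among 7 measured sterol-sensing genes, whose median was -0.05; with the brightness covariate the median was 0.03 and 0 passed. Of 20 bile acid genes, only Slco1b2, an uptake transporter, passed, and it fell by 0.57 ± 0.16; it did not pass with the covariate. Cyp7a1, the rate-limiting enzyme of bile acid synthesis, changed by 0.02 ± 0.40 over both maternal diets (limma adjusted p = 0.981), by -0.93 after 9% and by 0.97 after 18%, with an adjusted p = 0.875 for the difference.

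**Figure D4:**
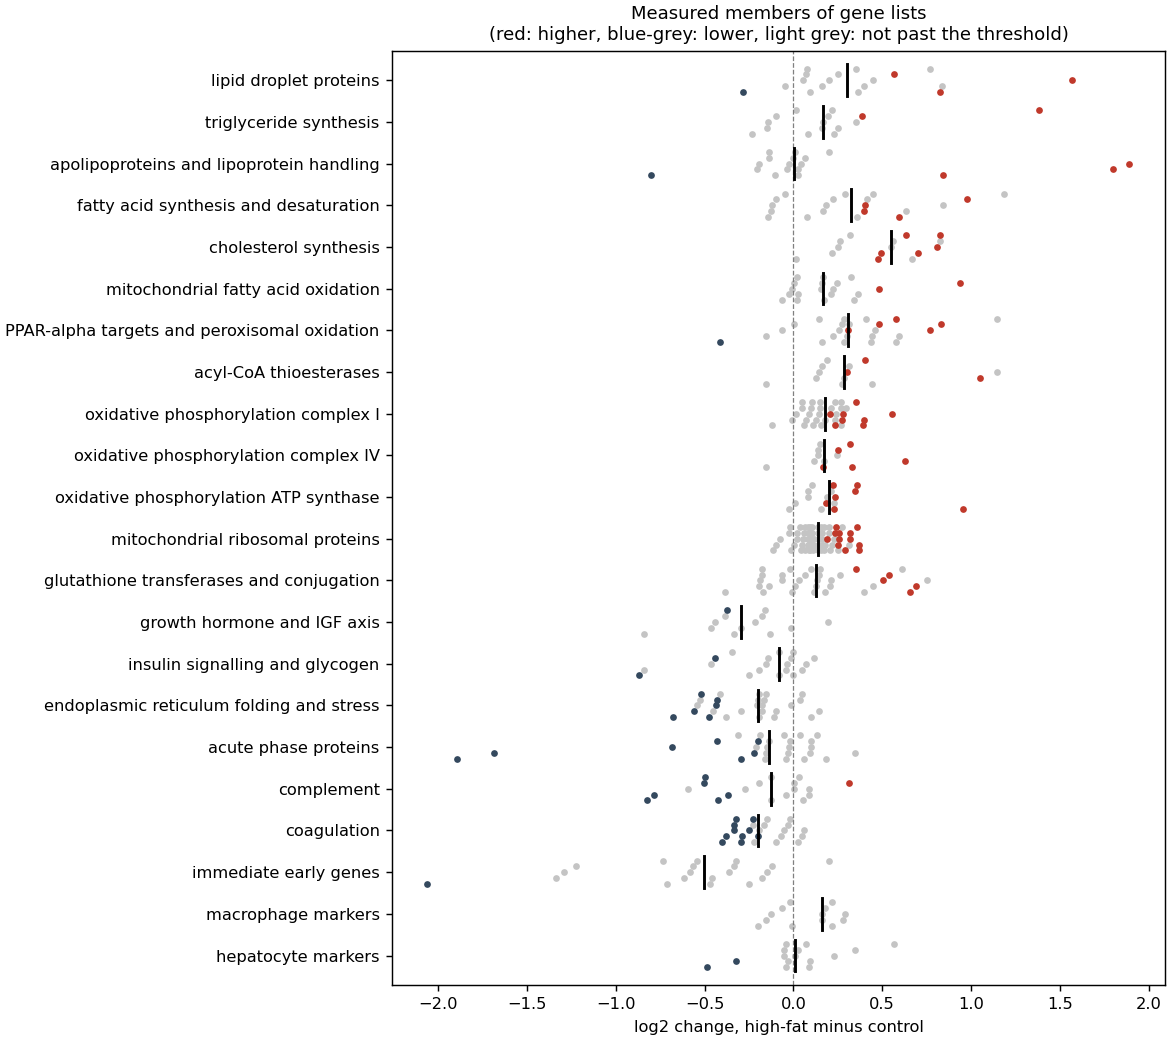
Log2 change, high-fat minus control (x axis), of every measured member of 22 gene lists, 1 point per gene; red points rose, blue-grey points fell, light grey points did not pass the adjusted threshold, and black bars are list medians. Cholesterol synthesis lies wholly right of 0 with a median of 0.55, oxidative phosphorylation lists sit slightly right of 0, and coagulation and endoplasmic reticulum genes sit left of 0 with medians of -0.20.

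Ppara, the gene of PPAR-alpha, and 4 of its listed targets and peroxisomal genes rose. Ppara separated the diets, at 6.99 to 7.23 (median 7.15) in high-fat and 6.14 to 6.98 (median 6.67) in control females, and rose by 0.48 ± 0.10 (limma adjusted p = 0.00920). Angptl4, which inhibits lipoprotein lipase, rose by 0.83 ± 0.17, Pex11a, which divides peroxisomes, by 0.77 ± 0.15, and Acaa1b, a peroxisomal thiolase, by 0.58 ± 0.14. For Angptl4 and Pex11a 7 of 8 high-fat arrays exceeded all control arrays, and the other Pex11a probes rose by 0.84 and 0.88. The peroxisomal transporter Abcd3 rose by 0.31 ± 0.09 and its relative Abcd2 fell by 0.41 ± 0.10. Cyp4a14, a microsomal fatty acid hydroxylase and classical target, ran from 13.32 to 13.80 (median 13.45) in high-fat and from 12.29 to 14.37 (median 13.17) in control females. Its change of 0.28 ± 0.20 did not pass (limma adjusted p = 0.412), and the high-fat arrays lay within the control range. Over the 16 fits that left out 1 array, the change ran from 0.15 to 0.47, with limma adjusted p-values from 0.0464 to 0.670. The lowest of these p-values came without control replicate 3 after 9%.

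Of 25 measured PPAR-alpha targets and peroxisomal genes 5 rose and 1 fell, 22 of 25 changes were positive and the median was 0.31. The covariate fit gave a median of 0.38 and 0 calls. Between 4 and 11 genes rose when 1 array was left out, with 11 without control replicate 3 after 9%. Pparg, the related receptor of fat storage, rose by 0.68 ± 0.19 (limma adjusted p = 0.0371), while the further probes gave 0.78 and 0.70 (adjusted p = 0.0849 and 0.0949, probes tested singly). The Pparg call ended in 10 of 16 fits that left out 1 array. In mitochondrial oxidation 2 of 19 measured genes rose and 0 fell (median 0.16, and 0.15 with the covariate): Crat, the carnitine acetyltransferase, by 0.94 ± 0.21 and Eci1, an enoyl-CoA isomerase, by 0.48 ± 0.12. These 2 genes are 10.5% of the list, near the 8.55% called over all features; 0 passed with the covariate, and without replicate 4 of the high-fat group after 9% 4 genes rose. The further Crat probes gave 0.34 and 0.08 (adjusted p = 0.214 and 0.721, probes tested singly). Among 13 thioesterases, which release free fatty acids from CoA, Them7 rose by 1.05 ± 0.11, Them6 by 0.40 ± 0.09 and Acot13 by 0.30 ± 0.07, with a list median of 0.28. With the covariate the median was 0.35 and Them7 alone passed, and without control replicate 3 after 9% 5 genes rose. Them7 stood at 9.94 to 10.61 (median 10.29) in high-fat and 8.98 to 9.62 (median 9.17) in control females, without overlap (limma adjusted p = 7.64e-05). Cd36, a fatty acid transporter, was not tested, since its probe was detected on at most 3 arrays.

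Some respiratory chain genes rose by small amounts, and most did not pass. Of 73 measured genes in the oxidative phosphorylation lists 20 rose, 0 fell and 53 did not pass, 68 of 73 changes were positive and the median was 0.18. By complex, 8 of 33 rose in complex I, 0 of 12 in complexes II and III, 5 of 12 in complex IV and 7 of 16 in ATP synthase. Ndufb4, Ndufb2 and Ndufb5, accessory subunits of complex I, rose by 0.55 ± 0.14, 0.40 ± 0.09 and 0.39 ± 0.10. Cox7b, a subunit of cytochrome c oxidase, rose by 0.63 ± 0.14, at 9.87 to 10.59 (median 10.21) in high-fat and 8.99 to 10.11 (median 9.60) in control females. Atp5k, of ATP synthase, rose by 0.96 ± 0.22 (limma adjusted p = 0.0135) and reached detection on 8 high-fat arrays and 5 control arrays. Levels of Atp5k were 5.87 to 7.49 (median 6.37) in high-fat and 5.00 to 6.26 (median 5.34) in control females, with 7 of 8 high-fat arrays above all control arrays. Atpif1, which restrains ATP synthase running in reverse, rose by 0.36 ± 0.08.

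The mitochondrial ribosome also had rises only: 12 of 67 measured genes rose and 0 fell, with a median of 0.14. Mrpl40 separated the diets, at 9.28 to 9.46 (median 9.35) in high-fat and 8.81 to 9.10 (median 9.01) in control females, and rose by 0.37 ± 0.06 (limma adjusted p = 0.00207). Mrpl39 and Mrps15 rose by 0.37 ± 0.08 and 0.36 ± 0.08. Among 47 cytosolic ribosomal genes 1 rose, 3 fell and the median was -0.04, with 8.51% of the list called beside 8.55% over all features. In the citrate cycle Dlst and Suclg1 rose by 0.28 ± 0.08 and 0.26 ± 0.07, 2 of 19 genes (10.5%, near the 8.55% over all features), with a median of 0.14. With the brightness covariate the medians were 0.09 for oxidative phosphorylation, 0.08 for the mitochondrial ribosome and 0.19 for the citrate cycle, and 0 genes passed in these lists. Leaving out 1 array gave 5 to 14 rises in complex I, 1 to 7 in complex IV, 3 to 9 in ATP synthase 6 to 17 in the mitochondrial ribosome and 0 to 2 in the citrate cycle.

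Among named genes that rose, Atp5k, Ppara and Mrpl39 held in their promoters the core of a site for NRF1, a factor of nuclear genes for mitochondria. The promoters of Ppara and Atp5k are shown, as those of the 2 genes with the larger rises. The letters searched are those in capitals, which read the same on both strands. They occurred in 0.971% of all 32851 promoters, in 1.87% of the 9157 promoters of genes tested, in 12 of 418 promoters of genes that rose and in 3 of 363 of genes that fell. Of 15 ATP synthase genes with a promoter, Atp5k and Atp5g2 held it. The windows are chr15:85735526-85735825 (plus strand) for Ppara and chr5:108434350-108434649 (minus strand) for Atp5k.
Ppara: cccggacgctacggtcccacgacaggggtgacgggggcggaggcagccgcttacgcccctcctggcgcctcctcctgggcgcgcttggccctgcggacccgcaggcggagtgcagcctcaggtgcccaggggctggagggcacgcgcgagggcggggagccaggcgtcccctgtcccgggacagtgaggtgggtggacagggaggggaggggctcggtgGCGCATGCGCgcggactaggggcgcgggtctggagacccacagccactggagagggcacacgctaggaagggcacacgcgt
Atp5k: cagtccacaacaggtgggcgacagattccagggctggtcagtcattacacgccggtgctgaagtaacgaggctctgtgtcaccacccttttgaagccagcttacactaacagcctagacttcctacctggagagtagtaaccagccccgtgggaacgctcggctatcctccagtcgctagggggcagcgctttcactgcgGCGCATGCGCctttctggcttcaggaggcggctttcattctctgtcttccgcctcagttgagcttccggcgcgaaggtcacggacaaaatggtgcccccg

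A minority of the protein-folding genes of the endoplasmic reticulum fell. Of 27 measured genes 6 fell, 0 rose and 21 did not pass, 23 of 27 changes were negative and the median was -0.20, or -0.21 with the brightness covariate. The disulphide isomerases Pdia4, Pdia5 and Pdia3 fell by 0.68 ± 0.13, 0.52 ± 0.12 and 0.48 ± 0.08, and Ero1b, the oxidase that recharges them, by 0.56 ± 0.15. Pdia4 stood at 9.01 to 9.86 (median 9.20) in high-fat and 9.52 to 10.39 (median 9.92) in control females, with 7 of 8 high-fat arrays below all control arrays. Xbp1, a transcription factor of the unfolded protein response, fell by 0.43 ± 0.08, and Edem1, which directs misfolded proteins to degradation, by 0.43 ± 0.12. Hspa5, the chaperone most often used to read this response, changed by -0.18 ± 0.19 (limma adjusted p = 0.597). None of the 27 passed with the brightness covariate, and leaving out 1 array gave 4 to 6 falls.

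The promoter of Ero1b is shown as the 1 of the 6 falling genes whose window held the endoplasmic reticulum stress response element, bound by ATF6 and NF-Y. The search on both strands fixed the outer 5 bases at each end of the capitals and left the 9 between them free; one end is a CCAAT box. It matched in 0.119% of all 32851 promoters and in 8 of the 24 list genes with a promoter, among them Hspa5. Capitals mark the element, here on the opposite strand of the window chr13:12565633-12565932 (plus strand).
Ero1b: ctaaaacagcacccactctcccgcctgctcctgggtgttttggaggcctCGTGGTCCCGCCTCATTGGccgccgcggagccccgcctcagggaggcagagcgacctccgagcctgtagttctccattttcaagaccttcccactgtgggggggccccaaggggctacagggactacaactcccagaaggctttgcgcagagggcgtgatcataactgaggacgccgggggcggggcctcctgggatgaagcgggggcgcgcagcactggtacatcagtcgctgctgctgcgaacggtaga

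Genes of plasma proteins in coagulation, complement and the acute phase were lower at some members. Of 23 measured coagulation genes 10 fell and 0 rose, 20 of 23 changes were negative and the median was -0.20. The share called was 43.5%, beside 8.55% over all features. F5, the cofactor of prothrombin activation, fell by 0.40 ± 0.07, F7, the protease that starts the extrinsic pathway, by 0.38 ± 0.11, and Serpind1, which inhibits thrombin, by 0.34 ± 0.08. F5 stood at 9.36 to 9.91 (median 9.50) in high-fat and 9.81 to 10.22 (median 9.97) in control females. For F5 7 of 8 high-fat arrays lay below all control arrays. Plg, the gene of the precursor of the clot-dissolving plasmin, also fell by 0.25 ± 0.08. Genes of proteins that form clots and of proteins that limit them were thus among the falls.

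Of 19 complement genes 6 fell and 1 rose (median -0.13), 36.8% of the list beside 8.55% over all features. C8b, of the membrane attack complex, fell by 0.82 ± 0.20, C1s1, of the classical pathway, by 0.78 ± 0.14 and Hc, the C5 gene, by 0.51 ± 0.10, while C8g rose by 0.31 ± 0.09. C1s1 and Hc separated the diets: C1s1 stood at 7.87 to 8.78 (median 8.35) in high-fat and 8.80 to 9.54 (median 9.12) in control females. Hc ran from 10.45 to 11.02 (median 10.81) in high-fat and from 11.14 to 11.68 (median 11.23) in control females. Among 27 acute phase genes 7 fell and 0 rose (median -0.14), 25.9% of the list, and 19 changes were negative and 8 positive. The 7 include the chemokine Cxcl1, and Fga, which is also counted in coagulation. Saa1, Saa2, Saa3, Saa4 and Lcn2 changed by 0.10, 0.34, 0.10, 0.19 and 0.13 and did not pass. Itih3, of the hyaluronan-binding inter-alpha-inhibitors, fell by 0.68 ± 0.13, with 7 of 8 high-fat arrays below all control arrays.

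Serpina1e, an alpha-1-antitrypsin gene, had one of the largest falls, at 8.85 to 12.79 (median 9.51) in high-fat and 10.64 to 13.00 (median 11.59) in control females. All high-fat arrays but 1 lay below every control array. Serpina1e fell by 1.89 ± 0.47 (limma adjusted p = 0.0214), while it fell by 2.29 without that array, replicate 3 after 18%. Serpina1e belongs to a family of near-identical copies, and its probe may read more than 1 of them. Hp and Orm1, abundant acute phase proteins, changed by -0.02 ± 0.09 and 0.10 ± 0.09 (limma adjusted p = 0.923 and 0.572). With the brightness covariate the medians were -0.12 for coagulation, -0.09 for complement and -0.07 for acute phase genes, and 0 of these passed. Leaving out 1 array gave 6 to 11 falls in coagulation, with 6 without control replicate 4 after 9%, 5 to 7 in complement and 5 to 7 in the acute phase.

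Single genes of signalling and the early response were lower, while the share of immediate early genes called was below that over all features. Cxcl1, a chemokine that attracts neutrophils, stood at 7.46 to 10.30 (median 8.06) in high-fat and 9.46 to 11.20 (median 10.29) in control females. It fell by 1.69 ± 0.32 (3.22-fold, limma adjusted p = 0.00589), with 6 of 8 high-fat arrays below all control arrays. Fosb, an AP-1 subunit, reached detection on 5 high-fat arrays and 8 control arrays, at 4.69 to 9.41 (median 5.78) in high-fat and 6.74 to 10.49 (median 7.73) in control females. Fosb fell by 2.06 ± 0.54 (limma adjusted p = 0.0276). Of 20 immediate early genes it alone passed, 5% of the list beside 8.55% over all features. Of the 20 changes 19 were negative, and the median was -0.51, or -0.33 with the brightness covariate. Fos and Atf3 changed by -1.29 ± 0.57 and -1.22 ± 0.50 (limma adjusted p = 0.164 and 0.137), with both diet groups widely spread. The Fosb call ended in 4 of 16 fits that left out 1 array, at adjusted p-values of 0.0504 to 0.0590: without replicates 2 or 3 of the high-fat group after 9%, replicate 1 of the high-fat group after 18% or replicate 3 of the control group after 18%.

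Irs2, an adaptor of the insulin receptor, stood at 8.08 to 9.55 (median 8.85) in high-fat and 8.94 to 10.46 (median 9.65) in control females, and fell by 0.87 ± 0.21 (limma adjusted p = 0.0169). Ugp2, which makes the glucose donor for glycogen, fell by 0.44 ± 0.09. Irs2 and Ugp2 were the 2 falls, beside 0 rises, among 19 insulin and glycogen genes (median -0.08, and -0.10 with the covariate). That is 10.5% of the list, near the 8.55% called over all features, and 0 passed with the covariate. In the growth hormone and IGF axis only Jak2, the kinase of the growth hormone receptor, passed, falling by 0.38 ± 0.07. That is 7.69% of the 13 measured genes, below the 8.55% over all features. Of these 13 genes 12 had negative changes, with a median of -0.30, or -0.13 with the brightness covariate. The other Jak2 probe changed by -0.18 (adjusted p = 0.258, probes tested singly). Gluconeogenesis and glycolysis showed 3 rises and 0 falls among 24 genes (median 0.03, or -0.04 with the covariate, where 0 passed). Pdk2, which switches pyruvate dehydrogenase off, rose by 0.38 ± 0.08, Ldha by 0.29 ± 0.08 and Tpi1 by 0.20 ± 0.06. These 3 are 12.5% of the list, beside 8.55% over all features, and leaving out 1 array gave 1 to 3 rises. The calls of Ldha and Tpi1 ended in 7 and 11 of 16 such fits. Other Tpi1 probes changed by 0.01 and 0.22 (adjusted p = 0.984 and 0.0231, probes tested singly). Pck1, the gluconeogenic PEP carboxykinase, changed by 0.15 ± 0.18 (limma adjusted p = 0.644).

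Further falls were found in Rcan1, an inhibitor of calcineurin, Trp53inp1, a p53-induced gene, and Irf5, an interferon regulatory factor. They fell by 1.08 ± 0.26, 0.95 ± 0.18 and 0.96 ± 0.19, and the other probes of Rcan1 and Trp53inp1 fell by 1.74 and 0.75. Slc22a26, an organic anion transporter, separated the diets at 7.45 to 8.96 (median 8.62) in high-fat and 9.08 to 9.62 (median 9.28) in control females, and fell by 0.95 ± 0.21. Serpina7, the thyroxine-binding globulin, Etnppl, which breaks down phosphoethanolamine, Pla2g12a, of a phospholipase family, and Avpr1a, a vasopressin receptor, fell by 0.95 ± 0.15, 0.94 ± 0.25, 0.91 ± 0.18 and 0.88 ± 0.26. The calls of Avpr1a and Etnppl ended in 11 and 5 of 16 fits that left out 1 array. Of 32 interferon response genes 2 rose and 1 fell (median 0.03), namely Ifi27l2b, Irgm1 by 0.28 ± 0.06, and Irf5. That is 9.38% of the list, near the 8.55% called over all features. The other Irgm1 probes changed by -0.05 and -0.34, opposite in sign to the brightest one. With the covariate Ifi27l2b alone passed in this list.

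In sulphur amino acid metabolism the diets separated for Csad, which fell, and for Bhmt, which rose. Csad, the decarboxylase that leads cysteine to taurine, stood at 7.33 to 8.17 (median 7.91) in high-fat and 8.39 to 9.56 (median 8.83) in control females. The diets did not overlap, and Csad fell by 1.05 ± 0.14 (2.07-fold, limma adjusted p = 0.000770). Bhmt, which remethylates homocysteine with betaine, stood at 12.70 to 14.04 (median 13.14) in high-fat and 10.93 to 12.64 (median 12.05) in control females. Bhmt rose by 1.22 ± 0.21 (limma adjusted p = 0.00353). Gss, the glutathione synthetase, fell by 0.86 ± 0.16, and its other probes fell by 0.66 and 0.38. In this list of 20 genes 2 rose and 2 fell, with a median of 0.01, and Csad alone remained past the threshold with the brightness covariate.

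Of 33 measured genes for breaking down amino acids and making urea 4 rose and 2 fell (median 0.13); with the covariate the median was 0.08 and Gpt2 alone passed. Leaving out 1 array gave 3 to 6 rises and 2 to 4 falls, with 4 falls without replicate 2 of the high-fat group after 18%. Gpt2, the mitochondrial alanine aminotransferase, separated the diets, at 10.99 to 11.55 (median 11.30) in high-fat and 10.27 to 10.92 (median 10.35) in control females, and rose by 0.77 ± 0.11 (limma adjusted p = 0.000921). Cps1, the entry enzyme of the urea cycle, and Glud1, which releases ammonia from glutamate, fell by 0.49 ± 0.12 and 0.46 ± 0.11. The list of glutathione transferases and conjugation, which also holds the epoxide hydrolases Ephx1 and Ephx2, had 5 rises and 0 falls among 33 genes. Its median was 0.13, and 0.06 with the covariate. The rises of Gstm2 by 0.69 ± 0.17, Gstt3 by 0.66 ± 0.13 and Gstk1 by 0.54 ± 0.08 led them, and Gstm4 and Ephx2 rose by 0.50 and 0.35. Gstk1, of peroxisomes and mitochondria, did not overlap between the diets, at 12.18 to 12.69 (median 12.42) in high-fat and 11.76 to 12.15 (median 11.85) in control females. No gene of this list passed with the covariate, and leaving out 1 array gave 3 to 6 rises. The glutathione transferases of the mu class are close in sequence, so the value of Gstm2 is uncertain.

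Of 28 xenobiotic cytochrome P450 and nuclear receptor genes 1 rose and 2 fell (median -0.11). Cyp2c39 rose by 0.42 ± 0.11, Cyp2j9 fell by 0.61 ± 0.16 and Cyp3a25 fell by 0.35 ± 0.10. These 3 are 10.7% of the list, near the 8.55% called over all features. Their calls ended in 7, 8 and 8 of 16 fits that left out 1 array. Aldh1a7, an aldehyde dehydrogenase, rose by 0.93 ± 0.16 and Rdh16, a retinol dehydrogenase, by 0.72 ± 0.15, 2 of the 3 rises among 22 aldehyde and alcohol dehydrogenases, of which 1 fell (median 0.00). With the covariate 0 genes of either list passed, with medians of -0.02 and -0.03. The cytochrome P450 list had 0 to 3 falls when 1 array was left out, and the dehydrogenases 3 to 5 rises, with 5 without replicate 3 of the high-fat group after 18%. Cyp17a1, the steroid 17-alpha-hydroxylase, rose by 1.04 ± 0.17 (limma adjusted p = 0.00254), at 11.18 to 12.86 (median 12.37) in high-fat and 10.57 to 11.61 (median 11.28) in control females. In the lists of sex-biased liver genes, 2 of 12 male-biased genes rose and 2 fell, and 1 of 16 female-biased genes rose and 1 fell; 0 passed with the covariate, where both medians were 0.04. Mup20, a male-biased urinary protein with close relatives in the genome, rose by 1.06 ± 0.20 (limma adjusted p = 0.00540).

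Markers of cell types showed few changes. In whole liver a change of cell numbers and a change of RNA per cell cannot be told apart. Of 15 hepatocyte markers Cps1 and Hnf4a fell, Hnf4a by 0.32 ± 0.09, with a list median of 0.01. Of 14 stellate cell markers Lum, a matrix proteoglycan, fell by 0.74 ± 0.12 and Reln by 0.34 ± 0.09, with a median of -0.07. With the brightness covariate 0 genes of either list passed, and the medians were 0.02 and -0.11. Each had 1 or 2 falls when 1 array was left out. Lists for macrophages (13 genes), endothelium (13), lymphocytes (9), neutrophils (5), blood cells (5), bile duct (4), pancreas (3) and adipocytes (2) had 0 members past the threshold. Blood cell markers had the highest median of these 8 lists, 0.33, or 0.20 with the brightness covariate, with 5 of 5 changes positive and a median of 0.53 after 9% and 0.17 after 18%. The globin gene Hbb-b2 changed by 0.44 ± 0.14 (limma adjusted p = 0.0511). Summed blood cell markers ran from 8910 to 13750 in high-fat and from 6783 to 14040 in control females, and their part in other results was not tested. Macrophage markers had a median of 0.16, or 0.26 with the brightness covariate; their summed linear level ran from 8453 to 14640 in high-fat and from 7682 to 15190 in control females. Summed neutrophil markers ran from 747 to 1864 in high-fat and from 518 to 4283 in control females, beside the fall of Cxcl1, and their part in it was not tested. Defining markers of adipocytes (Adipoq, Lep), bile duct (Krt19), pancreas (Cpa1) and endothelium (Kdr, but not Pecam1) were detected on 0 arrays. Among steatosis-linked cytoskeletal genes, 2 of 24 rose: Lgals1, a galectin, by 0.89 ± 0.26 and S100a10 by 0.72 ± 0.20. That is 8.33% of the list, beside 8.55% over all features, and the list's median was -0.03. The calls of Lgals1 and S100a10 ended in 9 and 8 of 16 fits that left out 1 array, which gave 0 to 2 rises, and neither passed with the covariate.

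Of the 808 features, which were selected on the average over both maternal diets, 597 had the larger change after 9%, with a median size of 0.43 after 9% and 0.34 after 18%; these values are descriptive. Tested within each maternal diet, 411 features (4.35%) passed after 9% and 8 (0.0847%) after 18%. The difference itself, tested as an interaction, passed for 0 features (0%) with limma, and 500 had an unadjusted p under 0.05. So a larger response after 9% was not shown for any gene. The dimmer arrays were also more frequent there, as 3 of the 4 dimmest were high-fat arrays after 9%, and with the brightness covariate 3 features passed after 9% and 0 after 18%.

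Pltp rose by 2.37 after 9% and by 1.42 after 18%, Apoa4 by 2.27 and changed by 1.33, and Csad fell by 0.90 after 9% and fell by 1.21 after 18%. The limma adjusted p was 0.0267 for Pltp, 0.110 for Apoa4 and 0.0275 for Csad after 18%. The smallest interaction p-values of named genes belonged to Usp18, which removes the ubiquitin-like ISG15, Cyp2j9 and the zinc finger gene Zfp612. Usp18 fell by 0.87 after 9% and changed by 0.21 after 18%, Cyp2j9 changed by -0.11 after 9% and fell by 1.11 after 18%, and Zfp612 changed by -0.42 and 0.28 (adjusted p = 0.875 for each difference).

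**Figure D5:**
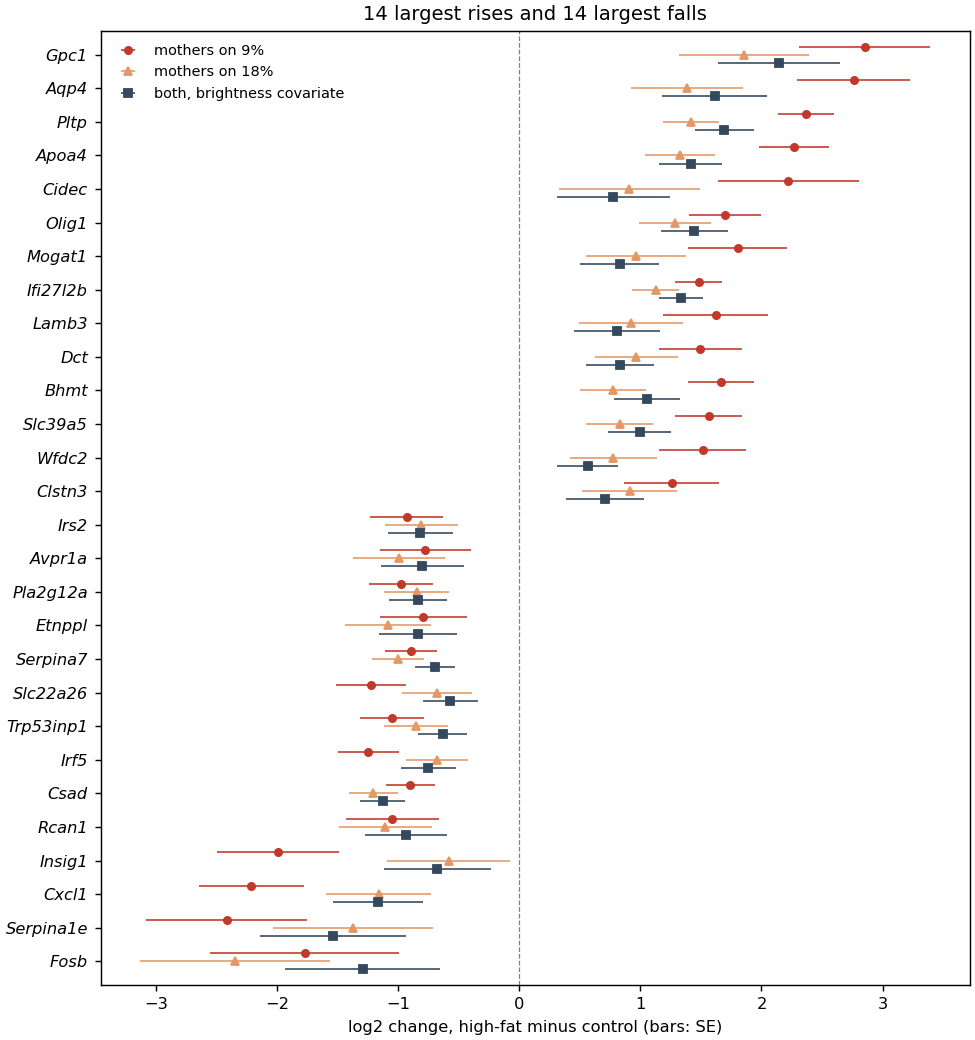
Log2 change, high-fat minus control (x axis, bars are SE), of the 14 genes with the largest rises and the 14 with the largest falls, after 9% (circles), after 18% (triangles) and over both with the brightness covariate (squares). The genes were chosen to have the same sign after both maternal diets, and for Insig1 the change after 9% (-1.99) is the larger one, against -0.58 after 18%.

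A small group of genes passed with all arrays, with the brightness covariate and without the 4 dimmest arrays. They were 10: Pltp, Apoa4, Ifi27l2b, Them7, Aldoc, Fmo5, Ces2e, Fads1 and Plscr2, which rose, and Csad, which fell. All 10 separated the diets on every array, as did 0.953% of all features. They were picked as calls from these same arrays, so their separation is no further support. Aldoc, a fructose-bisphosphate aldolase, stood at 7.90 to 8.86 (median 8.20) in high-fat and 7.11 to 7.86 (median 7.34) in control females and rose by 0.85 ± 0.12. Fmo5, a flavin monooxygenase, rose by 0.82 ± 0.12, Ces2e, a carboxylesterase, by 0.78 ± 0.09 and Plscr2, a phospholipid scramblase, by 0.55 ± 0.07. With the covariate and without the dim arrays, Pltp changed by 1.69 and 1.53, Apoa4 by 1.41 and 1.25, Them7 by 1.04 and 1.04, and Csad by -1.13 and -1.19. Aldoc, Fmo5, Ces2e and Plscr2 were named after their values were seen.

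The effect in females was set against that in males, whose arrays were of another version, so that sex and array version cannot be told apart. In the 16 male arrays 221 of 10297 features passed (2.15%). Of 6941 genes measured in both sexes, 3 differed in their response (0.0432%), and 734 had an unadjusted p under 0.05. They were Rps19 (-0.03 in females, 1.01 in males), Ubr1 (-0.33 and 0.50) and Tm4sf4 (-0.40 and 0.53), each read by different probes in the sexes. Further female probes gave 0.52 for Rps19 and -0.07 for Tm4sf4 (adjusted p = 0.0519 and 0.771, limma, probes tested singly). None of the 4686 genes read by the same probe passed. Gpc1 rose by 2.35 in females and by 1.71 in males, and Fads1 by 0.59 in females and 0.40 in males (adjusted p = 0.725 and 0.608 for the differences). Cidec rose by 1.56 in females and 3.74 in males, a difference of -2.18 with a 95% interval of -3.39 to -0.96 and an adjusted p = 0.188. Cyp4a14 changed by 0.28 in females and rose by 2.06 in males (difference -1.78, interval -3.01 to -0.55, adjusted p = 0.310). Cxcl1 fell by 1.69 in females and changed by 0.05 in males (adjusted p = 0.235 for the difference).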

How the data were processed

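Liver RNA was read on Illumina bead arrays after biotin labelling, 1 array per sample. The deposited intensity values of each probe were used without the authors' between-array normalisation, together with the detection p-value deposited for each probe and array, per the file headers. The authors' second table of normalised intensity values served as an alternative. The submitters' processing notes name BeadStudio; which version was run is not given in the sources used here.

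The neqc function of limma 3.58.1 (R 4.3.3, offset 16) corrected the background and applied quantile normalisation. Of 25697 probes, 23978 had 1 gene symbol, 0 several and 1719 none. A probe was kept if its detection p was under 0.05 on 4 or more of the 16 arrays (12561 probes), and each gene was read by its brightest probe, which gave 9446 features. Array medians lay within 0.0315 (log2) of their middle. Levels are normalised log2 intensities and are compared only within a probe. For a probe without detection on any array of 1 diet only a bound is given: the brighter group's mean over the other group's mean, in which each array counts with its lowest detected signal unless the probe's value there was higher. limma was fitted with an intensity trend, offspring diet and maternal diet, with Benjamini-Hochberg adjustment at 0.05. All limma tests were two-sided. The procedure was tested on simulated data. Plots used matplotlib 3.10.9 (Python 3.11.15).

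The named genes were the 14 largest rises and 14 largest falls with the same sign after both maternal diets, up to 3 called members per list, the 3 smallest interaction p-values, up to 5 genes differing between the sexes in each direction, and 11 genes always looked up. Further genes that complete a small count or stand beside it (Sort1, Plin2, Rab18, Elovl5, Sqle, Lss, Hsd17b7, Tm7sf2, Abcd3, Pdia3, Xbp1, Edem1, Hspa5, Plg, C8g, Hp, Orm1, Fos, Atf3) were added with their values in view. The comparison, the gene lists and the rule were chosen with earlier results of these data known.

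Litter is not in the labels, so p-values measure the spread between arrays and may be too small where arrays share a litter; 8 arrays per diet limit the precision. Replicate numbers did not pair the arrays: deviations of equal-numbered high-fat and control arrays correlated at -0.155 to 0.32. Alternatives covered normalisation, the filter on dim probes, probe choice, the design, array weights, brightness and single arrays.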

Additional observations from a re-analysis of the deposited data

Results flagged for a closer look

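In 20 groups of 8 arrays, the highest or lowest array of a named gene stood apart by Dixon's test at 95%; chance flags about 1 in 20 groups, and 242 groups were looked at. The clearest was Insig1 in high-fat females, with 6.51 on 1 array (9%, replicate 2) and 9.13 on the next. The same array was lowest in the high-fat group for Glud1 (10.66, next 11.27), Gss (6.11, next 7.01) and Slco1b2 (10.12, next 10.80). Serpina1e in high-fat females had 12.79 on 1 array (18%, replicate 3) and 10.23 on the next, and that array was the lowest for Pmvk (8.81, next 9.29).

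The other high-fat arrays that stood apart were the lowest for Acot13 (12.30, next 12.41) and Cox6c (13.43, next 13.85), and the highest for Atp5k (7.49, next 6.52), Dlst (10.79, next 10.59), Pdia4 (9.86, next 9.40) and Rps19 (12.70, next 12.54). Among control arrays, the highest stood apart for Aldh1a7 (10.98, next 10.48), Apoa4 (11.63, next 10.89), Fads2 (11.51, next 10.53), Hc (11.68, next 11.28), Mrps15 (9.61, next 9.30) and Ndufb2 (10.48, next 10.22), and the lowest for Hsd11b1 (13.94, next 14.14) and Ifi27l2b (4.75, next 5.43). Control replicate 3 after 18% was the high array for both Apoa4 and Fads2.

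The response to the diet differed between females and males for Rps19 (-1.04, females minus males on the log2 scale, limma adjusted p = 0.00946), Ubr1 (-0.83, adjusted p = 0.00946) and Tm4sf4 (-0.93, adjusted p = 0.0222), each read by different probes in the sexes. Further female probes of Rps19 and Tm4sf4 changed by 0.52 and -0.07, and the difference was not tested with them. A difference between probes and one between the sexes cannot be told apart here.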

How the results depend on the processing

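The count of 808 features was 790 with the authors' normalised values, 793 with quantile normalisation alone, 810 with detection on all 16 arrays, 829 with 4 group means, 862 with array weights and 766 without the intensity trend. With the replicate number as a replicate block it was 906, of which 755 were among the 808, and 2 of 111 called named genes lost the call and 0 changed sign. It was 517 without the filter on dim probes (271 higher, 246 lower), where 18312 features were tested. With the brightness covariate it was 23 (18 higher, 5 lower), and without the 4 dimmest arrays 14 (13 higher, 1 lower), where 4 of 8 high-fat arrays remained; the cause was not tested. Leaving out 1 array gave 490 to 876 features, 249 to 475 higher and 234 to 401 lower. The count moved by over 1.5 times without replicate 1 of the high-fat group after 18% (490), or replicates 2 (504) or 3 (519) of the high-fat group after 9%; the higher count also did without control replicate 4 after 9% (277) and the lower count without control replicate 1 after 9% (252). Within maternal diets these ranges were 84 to 611 after 9% and 0 to 19 after 18%, and the brightness covariate left 3 and 0. The interaction gave 0 throughout. Females minus males gave 0 with the same probe, where fewer genes were tested, and 5 with the authors' values. Of 111 named genes past the threshold, 82 stayed past it in every fit that left out 1 array, and 29 did not in at least 1. Of these 111 genes, 103 lost the call with the brightness covariate and 0 reversed. The chip as a block was not run, since the headers give no chip. Dim probes, such as those of Mogat1 and Fitm1, give only bounds in control females.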
